A study of Drosophila melanogaster and Drosophila simulans and Drosophila yakuba with 30 samples.

Results

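Dichaete regions were selected that were listed in Drosophila simulans and Drosophila yakuba but not in Drosophila melanogaster. The Dichaete binding intervals of the 3 species, all in D. melanogaster coordinates (UCSC build dm3), were merged wherever they shared at least 1 bp, and a merged region was kept when it held an interval of D. simulans and of D. yakuba and none of D. melanogaster. This rule kept 1443 of 29282 regions (4.93%). The 3 Dichaete lists chose these regions, so the presence in D. simulans and D. yakuba and the absence in D. melanogaster are not findings, and the Dichaete extents given here are a description. The lists of SoxNeuro (SoxN) and of Dichaete in Drosophila pseudoobscura were not used by the rule.

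Dichaete and SoxN are group B Sox proteins, transcription factors with an HMG-box DNA-binding domain that bend DNA on binding. Both are needed for the development of the embryonic nervous system of Drosophila, where their expression overlaps in parts of the neuroectoderm, and Dichaete also acts in segmentation, hindgut and brain. DamID maps where such a protein goes by fusing it to a bacterial adenine methylase (Dam), which marks nearby GATC sites, and the Dam-only control measures how accessible a fragment is. Of the species studied, D. simulans is the closest relative of D. melanogaster, D. yakuba is next and D. pseudoobscura is the most distant.

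The study assayed whole embryos of 0 to 16 h after lay in 30 libraries, with 3 biological replicates in each of 10 groups. D. melanogaster (strain w[1118]) and D. simulans (w[501]) were assayed with Dichaete-Dam, SoxN-Dam and Dam alone, and D. yakuba (Cam-115) and D. pseudoobscura (a stock labelled as the reference strain) with Dichaete-Dam and Dam alone. Each line carried a pBac3xP3-EGFP piggyBac insertion, marked by GFP in the eyes, with either the fusion gene or Dam alone. Flies were grown at 25 °C, except D. pseudoobscura, which was grown at 22.5 °C on a different medium. According to the methods, the fusions held the D. melanogaster proteins in every species and were expressed from UAS sites and an Hsp70 promoter, not from the promoters of Dichaete and SoxN, and the flies of all groups, controls included, were transgenic. The embryos were not sorted by tissue, so binding in fewer cells and weaker binding in more cells cannot be told apart. Each interval list was called on the 3 replicates and 3 Dam-only libraries of its condition together. D. melanogaster reads were mapped to dm3 directly, so a fragment missing from a D. melanogaster list did not pass its threshold, whereas one missing from a translated list may also have failed to translate. The lists hold positions and no read counts, so the depth behind an interval is unknown, no value has a spread between replicates, and no test over samples could be made. Shares are given with Wilson 95% intervals, and medians with order-statistic 95% intervals, which treat regions as independent and cover counting error only. The other classes of region with which the 1443 were compared were also chosen by the Dichaete lists, and the differences are a description.

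The 1443 regions were of moderate length and most rested on 1 interval in each species. Their median length was 886 bp (843 to 929 bp), with quartiles of 528 and 1470.5 bp, a range from 5 to 7634 bp and 1.61 Mb in all. Regions of D. melanogaster with D. yakuba had a median of 1210 bp and those of D. melanogaster with D. simulans 755 bp. Regions of all 3 species were longer (2376 bp), and those of a single species were shorter, at 626 bp for D. yakuba, 369 bp for D. simulans and 396 bp for D. melanogaster. Merging lengthens a region with each list that joins it, so these lengths are not a comparison of binding. A single D. simulans interval met a single D. yakuba interval in 1373 of the regions, while 56 held 2 D. simulans intervals and 16 held 2 D. yakuba intervals. They took up 1499 of the 16119 D. simulans intervals (9.30%) and 1459 of the 20964 D. yakuba intervals (6.96%).

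Most of the pooled sequence came from D. yakuba, which covered at least 50% of 1325 regions (91.8%), with 0.527% as the lowest share, while D. simulans covered at least 50% of 892 (61.8%). D. yakuba covered 89.7% of all their base pairs and D. simulans 53.7%, and 43.4% was covered by both. Per region the median extent was 767 bp for D. yakuba, 470 bp for D. simulans and 392 bp for the stretch they shared. In 760 regions the D. simulans intervals lay within a longer D. yakuba extent, in 198 D. yakuba lay within D. simulans, in 182 each reached past the other, and in 303 the extents were identical. As a whole, the D. yakuba list had longer intervals (median 944 bp) than the D. simulans list (568 bp). The D. simulans intervals in the regions were made of a single GATC fragment in 48.2% of cases, compared with 34.4% of that whole list. For D. yakuba the corresponding shares were 23.2% and 26.5%. In 210 regions (14.6%) both species were represented by a single fragment.

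**Figure D1:**
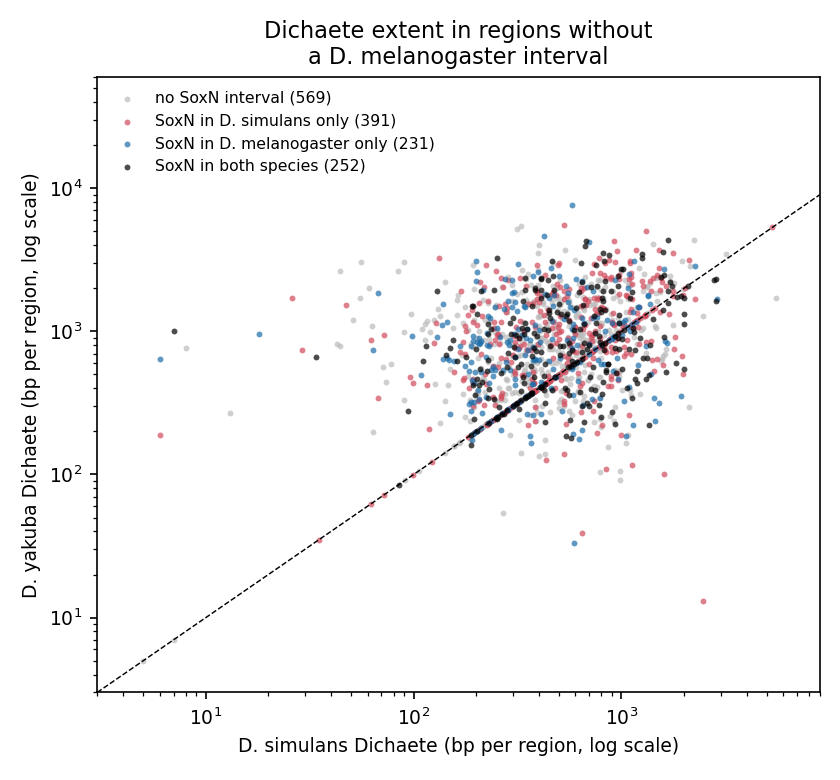
Base pairs covered by D. simulans Dichaete (x axis) and D. yakuba Dichaete (y axis) in each of the 1443 regions, on log scales, with 1 point per region coloured by the SoxN lists that overlap it. The dashed line marks equal extents; most points lie on it or above it, with medians of 470 bp in D. simulans and 767 bp in D. yakuba, and the points of the 4 SoxN groups are mixed.

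The longest region illustrates how unequal the 2 extents could be. It lay on chromosome X from 4011405 to 4019038 and was a single D. yakuba interval of 7634 bp that merged 29 GATC fragments. D. simulans had 2 intervals in it, from 4014941 to 4015424 and from 4018675 to 4018771, which covered 7.61% of the region. A D. melanogaster SoxN interval lay at 4013017 to 4013358, also at the stricter threshold of 0.01, and touched neither D. simulans interval. The next Dichaete interval of D. melanogaster was 3321 bp away. The second longest region (X, 14711529 to 14718291) had the opposite make-up, since D. simulans covered 5562 bp of it with 16 fragments and D. yakuba 1700 bp. It held no SoxN interval. Further examples among the 5 longest were regions on X from 134120 to 139651 and from 9260555 to 9265984, which D. yakuba covered whole and D. simulans for 9.62% and 6.06%. The fifth, on 2R from 15496253 to 15501582, was listed with identical ends in both species as 5330 bp of 6 fragments. There the D. melanogaster Dichaete list held nothing nearer than 3050 bp, and the D. simulans SoxN list held an interval over the last 795 bp.

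**Figure D2:**
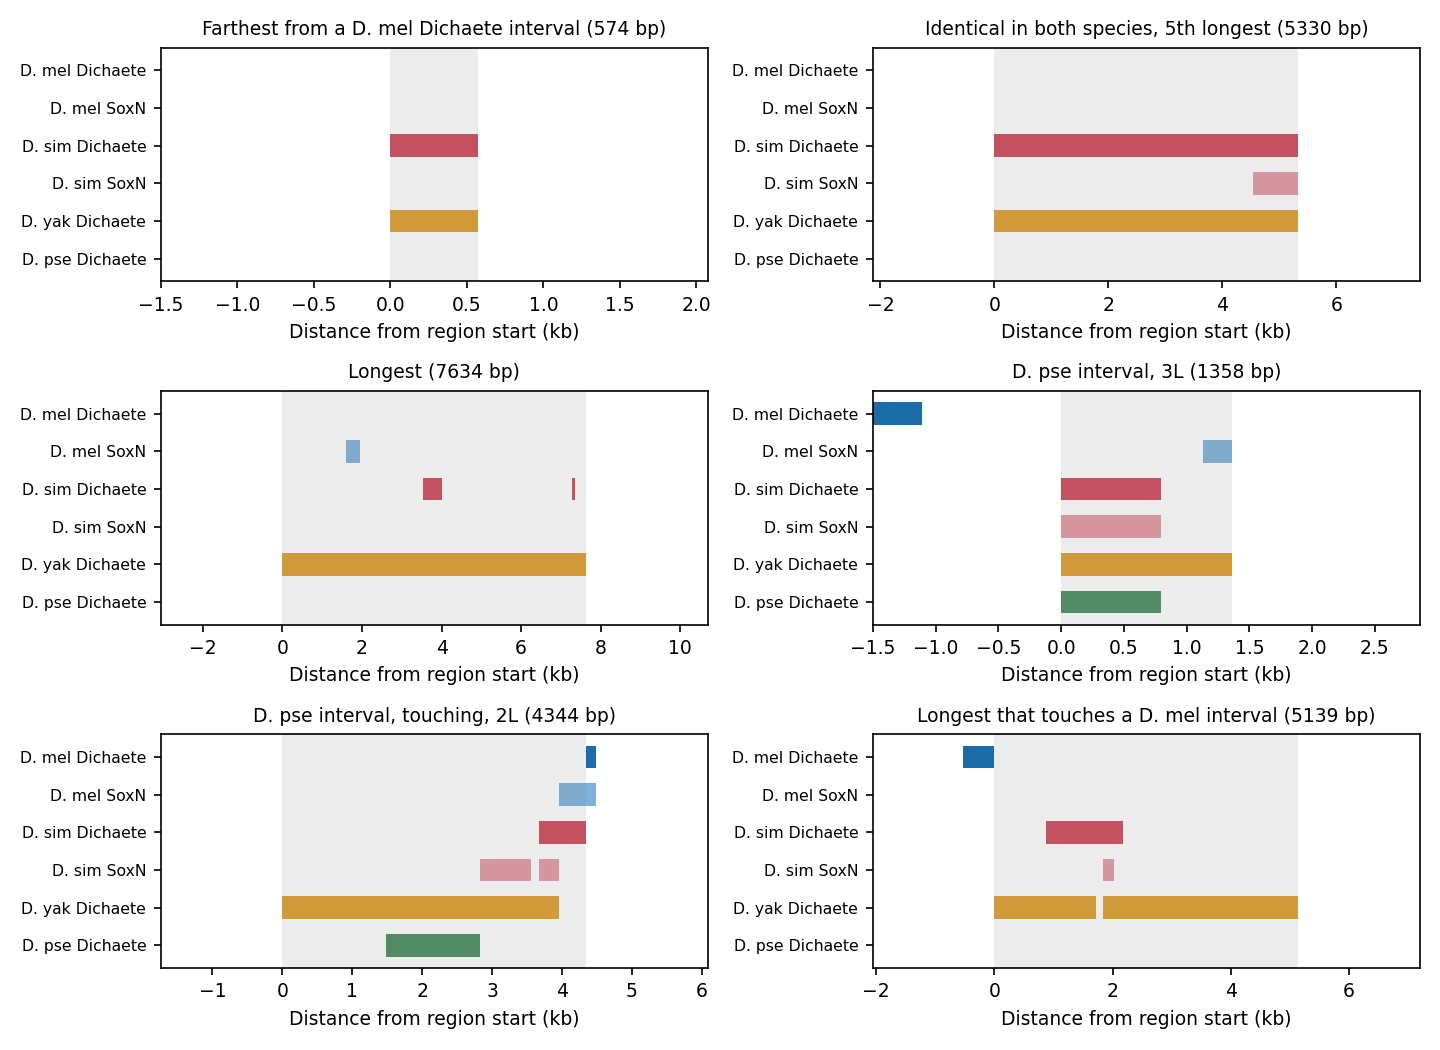
Interval lists at 6 of the named regions, each drawn to scale with its own x axis in kb from the start of the region (grey band). Bars are intervals; only SoxN and D. pseudoobscura intervals that overlap the region and the nearest D. melanogaster Dichaete interval on each side, where it falls in the window, are drawn. The Dichaete row of D. melanogaster is empty inside every grey band, as the rule demands, and the D. simulans bar covers from 7.61% to 100% of the band.

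The regions lay near Dichaete intervals of D. melanogaster, but seldom right beside one. The median distance from a region to the nearest such interval was 1570 bp (1461 to 1686 bp), with quartiles of 645 and 3155.5 bp. Within 500 bp lay 309 regions (21.4%, 19.4 to 23.6%), compared with 25.5% of all 11352 regions that lacked a D. melanogaster interval. Within 1000 bp lay 35.1% and within 5000 bp 85.4%, while 61 regions (4.23%) were more than 10000 bp away. For regions of D. yakuba alone these shares were 37.7%, 82.5% and 6.48%. For regions of D. simulans alone they were 40.4%, 83.4% and 5.89%. Such nearness was therefore not particular to the selected regions. In 666 of the selected regions (46.2%) a D. melanogaster interval lay within 5000 bp on both sides.

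Some regions were direct neighbours of a D. melanogaster interval. In 159 regions (11.0%, 9.51 to 12.7%) a D. melanogaster interval began at the base pair after the region or ended at the one before it, on both sides in 9 of them. The edges fell on shared GATC sites, so these pairs of intervals occupied adjacent fragments. Touching was more common in regions of D. yakuba alone (14.0%, 13.2 to 14.8%) and of D. simulans alone (15.3%, 14.0 to 16.8%). Only 22 regions lay 1 to 100 bp from a D. melanogaster interval. The 3 longest touching regions lay on 3R from 24499786 to 24504924, on 2L from 10253408 to 10257751 and on X from 14754625 to 14758316. In the first, the D. melanogaster interval of 537 bp ended where the D. yakuba interval began. The D. simulans interval, at 24500652 to 24501962, lay away from that edge.

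The nearest D. melanogaster intervals were close to their list in length and make-up. They had a median of 609 bp against 671 bp for the whole list, and 30.2% were single fragments against 27.2%. Of the 1443 nearest intervals, 45.7% belonged to a region of all 3 species and 27.5% to a region of D. melanogaster alone, and in the list as a whole these shares were 48.6% and 28.1%. Regions of D. melanogaster with D. simulans held 9.91% of the nearest intervals and 6.48% of the list.

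Regions listed in 1 species lay about as far from D. melanogaster intervals. The median distance was 1528.5 bp (1471 to 1584 bp) for regions of D. yakuba alone and 1443 bp (1362 to 1542 bp) for those of D. simulans alone, and 25.5% and 27.8% of them lay within 500 bp. The same measure was taken for the other regions that lack 1 species. Regions absent only in D. simulans were farther from the D. simulans list, with a median of 2256 bp and 14.4% within 500 bp. Regions absent only in D. yakuba were nearer to the D. yakuba list, with a median of 1077 bp and 33.5% within 500 bp. The lists cover unlike shares of the genome, taken up to the last listed base of each chromosome, and the order is the same: 11.0% for D. simulans, 18.2% for D. melanogaster and 25.7% for D. yakuba. The part of coverage in the distances was not tested.

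**Figure D3:**
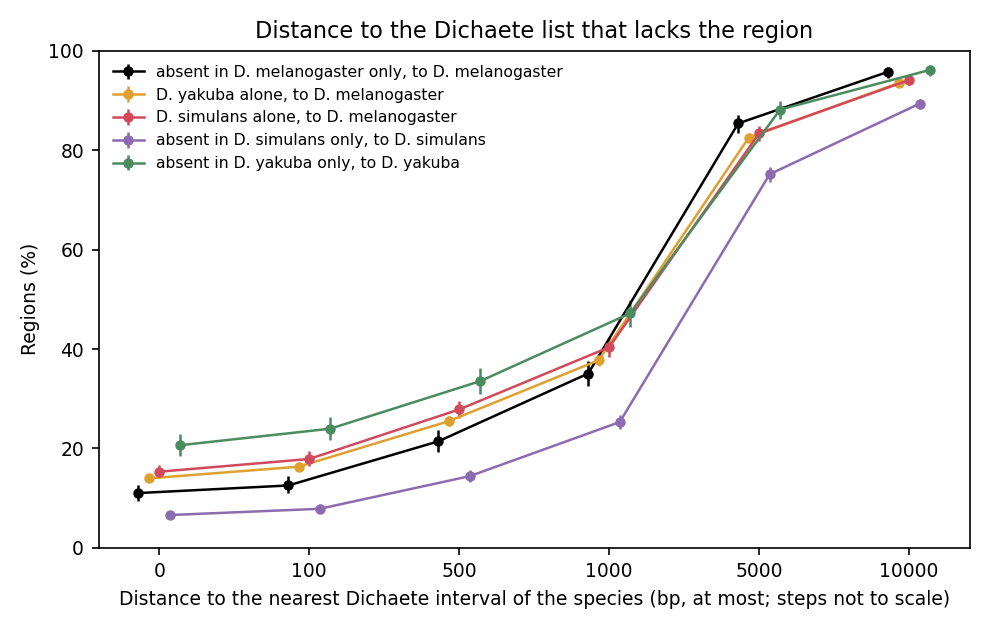
Share of regions (y axis, percent, with Wilson 95% intervals) whose nearest Dichaete interval in the named species lies at most the given distance away (x axis, bp, steps not to scale). The black line shows the 1443 regions absent in D. melanogaster only, which reach 21.4% at 500 bp and 85.4% at 5000 bp; the lines for regions absent in D. simulans only and in D. yakuba only lie below and above it at 500 bp, at 14.4% and 33.5%.

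The 3 regions farthest from any D. melanogaster Dichaete interval were short. A region of 574 bp on 2L from 14905448 to 14906021 was 44394 bp from the nearest one and consisted of 1 fragment that both species shared exactly. It held no SoxN interval in either species. On 3R, the region from 24203311 to 24204010 was 35682 bp away, and a D. simulans SoxN interval covered all of it. On 3L, the region from 4765332 to 4765758 was 30286 bp away, and its D. simulans SoxN interval had the same ends as the D. simulans Dichaete interval.

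The rule separates regions by a few base pairs at its margin. Just outside it, the regions of all 3 species with the least D. melanogaster binding were on 3L from 604306 to 607762 and on 3R from 5229040 to 5231898, with 6 bp of D. melanogaster Dichaete each, and on 3L from 16320837 to 16322008 with 7 bp. Of the 7482 regions of all 3 species, 67 had under 100 bp of it and 187 had it on under 10% of their length, and 533 (7.12%) lost it at the threshold of 0.01. Just inside it stood the 159 touching regions.

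The D. melanogaster SoxN list reached a sizeable minority of the regions. Its intervals overlapped 483 of the 1443 (33.5%, 31.1 to 35.9%). This is below the 58.8% of all 29282 regions and above the 16.2% of the 11352 regions without a D. melanogaster Dichaete interval, which include the 1443. Of regions of D. yakuba alone, 13.1% were overlapped, and of D. simulans alone 15.2%. Those with a D. melanogaster Dichaete interval stood far higher, at 72.9% for D. melanogaster alone, 83.1% with D. simulans, 88.5% with D. yakuba and 95.2% for all 3 species. Set to the lengths of the 1443 regions, the D. yakuba share was 13.0%, which is 20.5 percentage points lower (17.9 to 23.1). Against D. simulans alone the difference was 21.0 points (17.6 to 24.4). With only those lists counted that covered 50% or more of a region, D. melanogaster SoxN was found in 15.9% of 774 regions and the difference from D. yakuba alone was 8.27 points (5.62 to 10.9). With that SoxN list at the threshold of 0.01, the share was 13.2% and the difference 8.76 points (6.94 to 10.6). The SoxN list and the Dichaete list of D. melanogaster share their Dam-only controls, as do those of D. simulans, and the part of shared controls in these overlaps was not tested.

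The difference from regions of D. yakuba alone was present in each length class and on each of the 5 large chromosome arms. In the 4 length classes, from under 300 bp to 1200 bp or more, the share of the 1443 regions ranged from 27.9% to 35.8%, and that of regions of D. yakuba alone from 12.3% to 14.9%. By arm, it was 33.6% on 2L, 35.7% on 2R, 34.1% on 3L, 32.5% on 3R and 31.2% on X, compared with 10.7% to 15.3% for D. yakuba alone.

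These SoxN intervals were shorter than the list they came from, and fewer had a counterpart at the threshold of 0.01. The 516 D. melanogaster SoxN intervals in the regions had a median of 371.5 bp, against 593 bp for the 22952 intervals of the list. Of the 516, 232 (45.0%, 40.7 to 49.3%) were overlapped by an interval of the list at 0.01, compared with 69.4% of the whole list. Of the 22952 intervals, 4561 overlapped no D. melanogaster Dichaete interval, and those 4561 were not compared on their own. Whether the 516 differ from other SoxN intervals outside Dichaete was therefore not tested. Inside the regions themselves, 190 of the 483 held an interval at 0.01. Of the 516, 65 (12.6%) also reached a D. melanogaster Dichaete interval next to the region. In 418 regions (29.0% of the 1443) the D. melanogaster SoxN intervals shared no base pair with such a Dichaete interval. The rule bars D. melanogaster Dichaete from the regions, so these counts follow largely from the selection. They were not made for other regions without D. melanogaster Dichaete. Within the 483 regions SoxN covered a median of 37.2% of the length, with the whole region covered in 75 and under 10% in 49. In base pairs it covered 11.7% of the 1443 regions, below the 17.7% of the genome that the list covers as a whole.

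The overlap with D. melanogaster SoxN was lowest far from D. melanogaster Dichaete. It was 40.9% (33.5 to 48.6%) of the 159 touching regions and 48.7% (40.8 to 56.6%) of the 150 regions 1 to 500 bp away. The share was 32.5% (29.6 to 35.6%) of the 923 regions 501 to 5000 bp away and 21.3% (16.3 to 27.3%) of the 211 regions farther away. The intervals of the first pair of classes overlap. The lengths differed less, with medians of 952, 1119.5, 853 and 802 bp.

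D. simulans SoxN was found in more of the regions. It overlapped 643 (44.6%, 42.0 to 47.1%), against 39.2% of all 29282 regions. It overlapped 8.61% of regions of D. yakuba alone and 35.0% of those of D. simulans alone. Set to the lengths of the 1443 regions the latter share was 48.2%, and the difference of -3.62 points (-8.02 to 0.79) does not exclude 0. Of regions of D. melanogaster with D. simulans, 65.1% were overlapped, and of those in all 3 species 84.9%. Regions of D. melanogaster with D. yakuba lack only D. simulans, and D. simulans SoxN overlapped 39.4% of them (37.8 to 41.1%). The corresponding share of the 1443 regions, for SoxN of the species without Dichaete there, was 33.5%. SoxN of the lacking species is therefore not particular to the 1443 regions. Counted as intervals, 41.7% of the D. simulans Dichaete intervals in the regions were overlapped by SoxN of that species, compared with 66.8% of its whole Dichaete list. The D. simulans SoxN interval covered a median of 54.5% of a region that held one, and the list covered 22.1% of all their base pairs, against 12.5% of the genome. With distance from D. melanogaster Dichaete this share did not fall steadily, at 53.5%, 46.0%, 42.5% and 46.0% from touching to beyond 5000 bp.

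**Figure D4:**
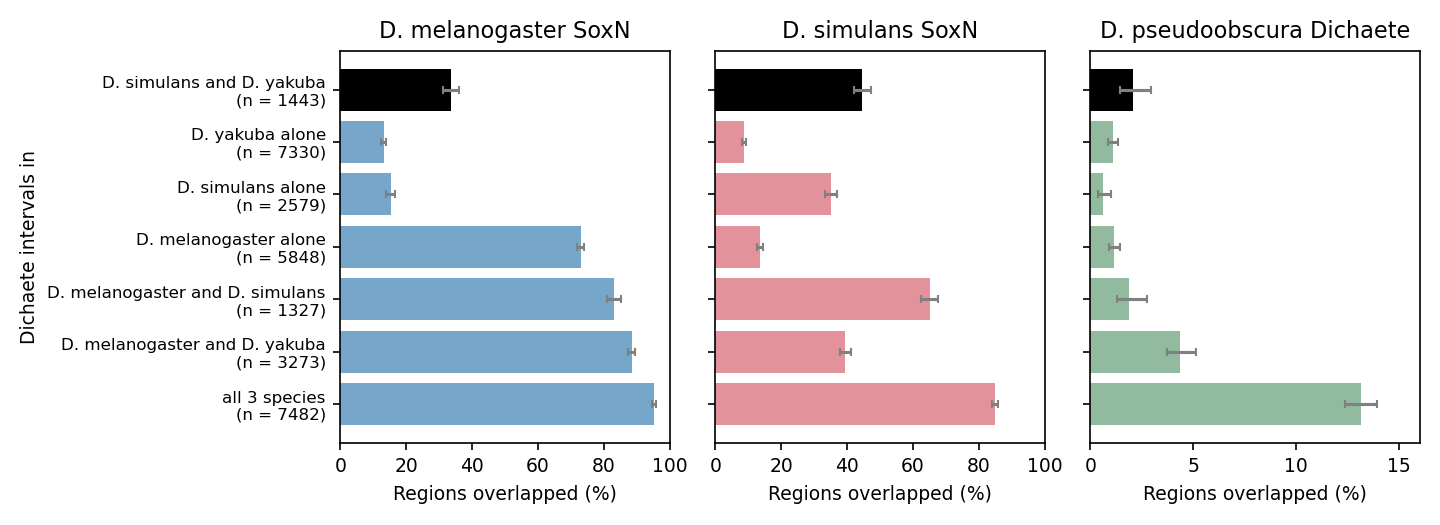
Share of regions (x axis, percent, with Wilson 95% intervals) overlapped by a D. melanogaster SoxN, a D. simulans SoxN or a D. pseudoobscura Dichaete interval, for each class of merged Dichaete region (y axis, number of regions in brackets); the third panel has its own scale. The black bars are the 1443 regions listed in D. simulans and D. yakuba, at 33.5%, 44.6% and 2.08%, and in the first panel they stand above both classes of a single other species and below every class with a D. melanogaster Dichaete interval.

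A SoxN interval of at least 1 species lay in 874 of the regions (60.6%, 58.0 to 63.1%), near and below the 66.0% of all 29282 regions. SoxN was listed in both species in 252 regions (17.5%), against 32.0% of all regions, and in D. melanogaster alone in 231 (16.0%), against 26.8%. It was listed in D. simulans alone in 391 (27.1%), against 7.20%, and in neither in 569 (39.4%), against 34.0%. All regions include those with D. melanogaster Dichaete, which most often hold SoxN of that species. Of regions of D. simulans alone, 5.78% had SoxN in both species and 9.46% in D. melanogaster alone. A further 29.2% had it in D. simulans alone, near the 27.1% here, and 55.6% in neither. For regions of D. yakuba alone these shares were 2.40%, 10.7%, 6.21% and 80.7%. SoxN in D. simulans alone was thus not particular to the regions. SoxN in both or in D. melanogaster alone was more common here than in either class, and its absence less common. Lengths were not matched. D. melanogaster SoxN was present in 39.2% (35.5 to 43.0%) of the regions with D. simulans SoxN and in 28.9% (25.8 to 32.1%) of those without. The 231 regions held SoxN without Dichaete in D. melanogaster and Dichaete without SoxN in D. simulans. Each species thus had a group B Sox interval of a different protein in the same merged region, but these intervals need not share a base pair. In how many of the 231 they do was not counted. The 391 regions held both proteins in D. simulans and neither in D. melanogaster. Regions without SoxN were the shortest, with a median of 793 bp (722 to 855 bp) against 974.5 bp (864 to 1132 bp) with SoxN in both species. They were also farther from D. melanogaster Dichaete, at 1787 bp (1614 to 1979 bp) against 1301 bp (1045 to 1591 bp). Their D. simulans Dichaete intervals were single fragments in 55.8% of cases, against 32.7% in the regions with SoxN in both species. The 3 longest regions without SoxN were X from 14711529 to 14718291 and from 9260555 to 9265984, both named above, and 3R from 2513438 to 2518614.

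Within a region, SoxN lay mostly where Dichaete of both species met. D. melanogaster SoxN covered 15.7% of the base pairs listed in both D. simulans and D. yakuba, 11.9% of those in D. simulans alone and 7.98% of those in D. yakuba alone. Of the 483 regions that held it, 360 (74.5%, 70.5 to 78.2%) had it on the shared stretch, and in 123 it lay on a flank. D. simulans SoxN covered 36.8% of the shared base pairs, 27.6% of those in D. simulans alone and 7.17% of those in D. yakuba alone, and it reached the shared stretch in 592 of 643 regions (92.1%). Regions with 2 or more fragments in both species were overlapped by D. melanogaster SoxN in 42.3% of 653 cases, and those of a single fragment in both in 15.2% of 210. Their median lengths were 1151 and 379.5 bp.

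Aligned on their centres, the regions differed from the points 1000 bp away in both SoxN lists. D. melanogaster SoxN covered 15.8% of the centres, 10.0% of the points 1000 bp to the left and 9.42% of those 1000 bp to the right. It covered 16.6% and 15.0% of the points 2000 bp away, near the share at the centres. At 5000 bp it covered 18.9% and 19.9%. At the centres of regions of D. yakuba alone it covered 8.24%, lower than at their flanks, and at those of D. simulans alone 12.7%. For D. simulans alone the points 1000 bp away were covered in 13.8% and 14.0% of cases. D. simulans SoxN covered 27.4% of the centres, against 32.9% for regions of D. simulans alone and 5.93% for those of D. yakuba alone. At the points 1000 bp away it covered 8.92% and 9.34% for D. simulans alone, and 7.48% and 6.24% for the 1443 regions. D. melanogaster Dichaete, absent at the centres by the rule, covered 7.76% and 6.51% of the points at 1000 bp and 18.2% and 17.6% at 5000 bp.

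**Figure D5:**
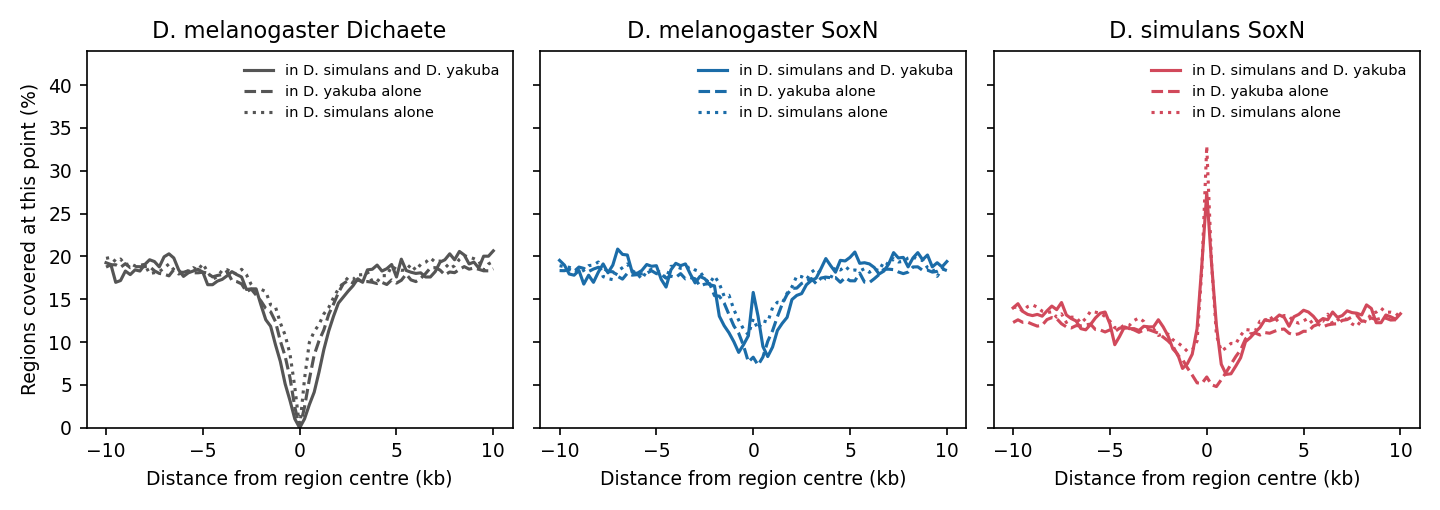
Share of regions (y axis, percent) in which the point at a given distance from the region's centre (x axis, kb) is covered by an interval of D. melanogaster Dichaete, D. melanogaster SoxN or D. simulans SoxN. Solid lines are the 1443 regions, dashed and dotted lines the regions of D. yakuba alone and of D. simulans alone. The dip of D. melanogaster Dichaete to 0 follows from the rule. D. melanogaster SoxN has a narrow peak of 15.8% at the centre of the 1443 regions inside a dip. D. simulans SoxN has a peak of 27.4% there, below the 32.9% of D. simulans alone and above the 5.93% of D. yakuba alone.

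Few of the regions were listed in D. pseudoobscura. Its Dichaete list overlapped 30 of the 1443 (2.08%, 1.46 to 2.95%), against 4.59% of all regions. The share was 1.09% for D. yakuba alone, 0.620% for D. simulans alone, 1.88% for D. melanogaster with D. simulans, 4.37% for D. melanogaster with D. yakuba and 13.1% for all 3 species. Set to the lengths of the 1443 regions, the share for all 3 species was 7.17%, so that their own share differed from it by -5.09 points (-6.08 to -4.10). Against regions of D. yakuba alone the difference was 0.81 points (0.01 to 1.60). The overlaps used 31 of the 2020 translated D. pseudoobscura intervals (1.53%). According to the paper, profiles of this species were noisier and its replicates less reproducible. A region outside this list is therefore not shown to be unbound. In base pairs the list covered 1.00% of the regions and 0.988% of the genome.

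The 30 regions with D. pseudoobscura are those in which Dichaete was listed in every species but D. melanogaster. Their median length was 1232 bp, against 886 bp for the 1443 regions. D. simulans SoxN lay in 20 of them, with D. melanogaster SoxN in 7 of these, and 10 had no SoxN. None had D. melanogaster SoxN without D. simulans SoxN. Of the 1443 regions, 44.6% held D. simulans SoxN, 33.5% D. melanogaster SoxN, 16.0% D. melanogaster SoxN alone and 39.4% no SoxN. The 30 regions are few and longer, and whether they differ from the 1443 in SoxN was not tested. The D. pseudoobscura interval reached the stretch shared by D. simulans and D. yakuba in 19 of the 30.

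The 7 regions overlapped by both SoxN lists and by D. pseudoobscura included a compact one on 3L from 8765990 to 8767347. There the D. simulans Dichaete, D. simulans SoxN and D. pseudoobscura Dichaete intervals had the same ends, 8765990 to 8766786, inside a D. yakuba interval that covered the region. D. melanogaster SoxN lay beside them at 8767122 to 8767347. In a region on 2L from 1178454 to 1179683, these 3 lists also had an interval with the same ends, 1178454 to 1178906, and D. melanogaster SoxN lay at 1178925 to 1179127. D. pseudoobscura had another interval there, at 1179592 to 1179683. In neither region did D. melanogaster SoxN persist at 0.01. The other named regions of this kind were on 2L from 10253408 to 10257751 and from 10430153 to 10431644 and on 3L from 12762684 to 12765568. Of these 5, only the region at 10430153 kept its D. melanogaster SoxN at 0.01.

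The regions were spread over the large chromosome arms. They made up 4.43% of the merged regions on 2L (241), 5.13% on 2R (272), 5.42% on 3L (328), 5.67% on 3R (382) and 4.09% on X (218). Chromosome 4 held 2 of its 418 regions (0.478%, 0.131 to 1.73%). Of 124 blocks of 1 Mb, 3 held none and the median was 11. The block with most, on 3L from 11000001 to 12000000, held 26, which is 9.92% of its 262 merged regions, and the longest of these lay at 11057064 to 11059922. D. simulans SoxN was listed in 51.0% of the regions on 2L and 50.0% of those on 2R, against 41.8% on 3L, 38.5% on 3R and 45.0% on X. The share of all merged regions on each arm that held D. simulans SoxN was not computed. Whether the arms differ in the same way for other regions was therefore not tested.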

How the data were processed

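DamID libraries of 30 samples in 10 groups entered the deposited lists. According to the methods, the authors trimmed reads with Cutadapt, mapped them with Bowtie2, translated reads of the other species to dm3 with LiftOver, counted reads on GATC fragments, compared fusion with Dam-only libraries by DESeq2 (version 1.6.1 in the submitters' processing notes) and joined enriched fragments within 100 bp. The deposited values used here are the start and end of each interval and the number of fragments merged, which was inferred from the values. A fragment may miss a translated list because it did not translate or missed the threshold. The adjusted p-value threshold was 0.05 in the lists used, and 0.01 in the stricter D. melanogaster lists. The 4 lists in the other species' own coordinates were not used. Overlaps counted from 1 bp (Python 3.11.15, NumPy 2.4.6, SciPy 1.17.1, Matplotlib 3.10.9). Differences between shares were standardised to length classes split at 300, 600 and 1200 bp. The functions passed 10 of 10 checks on simulated lists. Coordinates are 1-based.

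The regions, lists and comparisons were chosen with earlier results of these data known. Regions were named by rule: the 5 longest, the 3 farthest from D. melanogaster Dichaete, the 5 longest in all 3 other lists, the 3 longest without SoxN, the 3 longest that touch a D. melanogaster interval, the longest of the fullest 1 Mb block, and the 3 just outside the selection. Genes and sequences at the regions were not analysed here, since no genome or annotation of dm3 was used. Alternatives were other overlaps, thresholds, minimum lengths, joining distances and chromosome sets.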

Additional observations from a re-analysis of the deposited data

How the results depend on the processing

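No paired analysis was possible because each list pools its replicates and no result comes from a test over samples, and no replicate could be left out. Of 61 recomputed values, 35 stayed within the interval of the reported value or within 1.5 times a count, and 26 moved. Counts, medians and shares have no direction that could change. Only the difference in D. melanogaster SoxN share from D. yakuba alone has one, and it stayed positive in each of its alternatives. With each list on at least 50% of the region, 774 regions remained, with a median of 617 bp, 17.6% within 500 bp of D. melanogaster Dichaete, D. melanogaster SoxN in 15.9%, D. simulans SoxN in 34.5%, D. pseudoobscura in 0.904% and a difference from D. yakuba alone of 8.27 points. With D. melanogaster Dichaete at 0.01 there were 2037 regions, and these values were 960 bp, 14.6%, 44.5%, 49.3% and 24.3 points. With intervals of at least 500 bp they were 1451 bp, 13.2%, 54.4%, 60.2% and, for D. pseudoobscura, 3.60%; D. melanogaster intervals under 500 bp no longer remove a region there. With gaps up to 1000 bp joined, the median was 1165 bp, D. melanogaster SoxN 30.6% and the share within 500 bp 0%, by construction. With touching intervals joined that share was 11.6%. With D. melanogaster SoxN at 0.01 its share was 13.2% and the difference 8.76 points. Beyond 500 bp from D. melanogaster Dichaete, D. melanogaster SoxN lay in 30.4%. Without regions of a single fragment in both species, an alternative added after the data were seen, it lay in 36.6%, and the difference was 23.7 points. Depth is unknown from the lists, so an absent interval is one not listed at the threshold, not a measured absence of binding.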

Other observations

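Some of the regions lay in runs. Neighbouring regions were 45823 bp apart at the median, and 169 of 1437 neighbouring pairs were within 5000 bp of each other. Such pairs were not counted for other classes of region. The longest run, described because of its count, held 8 regions on 3L between 3277498 and 3298356, a span of 20859 bp. D. yakuba Dichaete covered 50.1% of this span with 10 intervals and D. simulans 33.1% with 9. D. melanogaster had 1 Dichaete interval of 183 bp, at 3286583 to 3286765, which is 0.877% of the span. The rule bars D. melanogaster Dichaete from the 8 regions, so this contrast follows largely from how the run was chosen. D. melanogaster SoxN was listed once in the span, with the same ends as the D. melanogaster Dichaete interval. D. simulans SoxN had 1 interval of 386 bp, and D. pseudoobscura Dichaete had none. The first region of the run, 3614 bp from 3277498 to 3281111, merged 9 fragments in D. simulans and 10 in D. yakuba. The fourth, from 3286766 to 3287266, touched the D. melanogaster interval. The next longest run held 5 regions on 2R between 5766310 and 5783471, with no D. melanogaster Dichaete interval among them.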
